A study of Drosophila melanogaster with 8 samples.

Results

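The proteasome subunit genes of Drosophila melanogaster are described here across 8 poly-A RNA libraries of cultured cells. They were taken as every gene whose FlyBase symbol begins with Prosalpha, Prosbeta, or Rpn or Rpt followed by a digit, which gave 48 genes among the 13932 gene identifiers of the deposited tables. Of the 48, 32 encode the somatic subunits and 16 are paralogs, recognised by a T or R after the subunit number of their partner. The cells were S2R+, a macrophage-like line derived from embryos, either edited with CRISPR in Stat92E (Stat92E mutant) or unedited (wild type). Each line was given the ligand upd, or media without it, over 1 h, which gave mutant cells with upd, mutant cells in control media, wild-type cells with upd and wild-type cells in control media, 4 groups sequenced as 2 libraries apiece. The labels do not say whether the mutant line is 1 clone or how the replicates of a group were grown. P-values therefore reflect the spread of these libraries and nothing wider, and that spread may be technical. The upd ligand activates the JAK/STAT pathway, which ends in the transcription factor STAT92E.

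The 26S proteasome degrades proteins that carry a ubiquitin tag. Its core particle is a barrel of outer α rings, built from the Prosalpha subunits, and inner β rings, built from the Prosbeta subunits, of which Prosbeta1, Prosbeta2 and Prosbeta5 carry the proteolytic sites. The regulatory particle has a base, where the Rpt ATPases unfold the substrate, and a lid of Rpn subunits, where Rpn11 removes ubiquitin. In flies many subunits have duplicated genes, most of which are known from the male germ line, where variant core particles are made during sperm development.

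Library totals were 15146225 to 22948539 counts in mutant cells and 8285533 to 30352948 counts in wild-type cells. The wild-type libraries of replicate 1 were shallow (9142736 and 8285533 counts) and the replicate 2 libraries were deep. Mitochondrially encoded transcripts took 15.0% to 19.1% of the counts in mutant libraries, against 20.2% and 22.1% in the shallow and 12.8% and 13.95% in the deep wild-type libraries. Stat92E transcripts were at 111 and 121 CPM (counts scaled to a common library size) in mutant cells with upd and 103 and 114 CPM in mutant cells in control media, against 157 and 160 CPM in wild-type cells with upd and 161 and 178 CPM in wild-type control media. Transcript levels of an edited gene say nothing of its protein, so these values do not check the mutation. Socs36E, a textbook JAK/STAT target, stood at 39.8 and 98.0 CPM in mutant cells with upd and 32.4 and 49.9 CPM in mutant control media, against 927 and 1007 CPM in wild-type cells with upd and 287 and 208 CPM in wild-type control media. Of 11 macrophage (haemocyte) markers, 8 could be tested, and 5 of those were lower in mutant than in wild-type cells over both media, where 13.6% of all genes tested were called lower. With the media summed, a fit described with the comparison of the lines, 4 of 8 were lower, where 6.63% of all genes were. The summed marker level was 499 to 550 CPM in mutant libraries and 1040 to 1560 CPM in wild-type libraries. The collagen genes Col4a1 and vkg, which haemocytes produce, had 12 to 35 counts in each mutant library, against 699 to 18759 in wild-type libraries. Of the tested markers, srp (log2 difference 0.08), Pxn (0.04) and crq (-0.21) did not pass.

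The somatic subunit genes were among the more abundant transcripts of these cells. Of 32 somatic members, 31 had counts, and their median level per length stood at percentiles 83.9 to 98.7 among the 9291 genes with a median RPKM (counts scaled by gene length and library size, as deposited by the authors) above 0. Prosalpha2, a subunit of the α ring, was the most abundant at 561 and 734 RPKM in mutant cells with upd, 733 and 835 RPKM in mutant control media, 391 and 657 RPKM in wild-type cells with upd and 433 and 655 RPKM in wild-type control media. Rpn2, a large scaffold subunit of the base, was the lowest at 51.5 to 61.8 RPKM in mutant libraries and 29.7 to 44.5 RPKM in wild-type libraries. The highest level exceeded the lowest by 10.9 to 13.5 times within a mutant library and by 13.2 to 15.3 times within a wild-type library. The α ring stood above the other parts in every library.

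Levels per length differed between the parts of the particle. The median RPKM over the 6 α ring genes with counts was 294 to 369 in mutant libraries and 221 to 311 in wild-type libraries, with Prosalpha2 at the top and Prosalpha3 at the bottom of the ring in all 8. Over the 7 β ring genes it was 153 to 160 RPKM in mutant libraries and 108 to 136 RPKM in wild-type libraries. Prosbeta6 led the β ring in every library, and the proteolytic subunit gene Prosbeta1 was lowest in 7 of them. Over the 10 base genes it was 126 to 169 RPKM in mutant libraries and 72.8 to 130 RPKM in wild-type libraries, led by the ATPase gene Rpt1. Over the 8 lid genes it was 126 to 145 RPKM in mutant libraries and 78.9 to 120 RPKM in wild-type libraries, with Rpn5 highest in 7 libraries and Rpn3 lowest in all 8. The ranges of the β ring, base and lid overlapped, and neighbours in the order of single genes mostly lay within each other's range over libraries: Prosbeta4 (median 138 RPKM), Rpt2 (128 RPKM), Rpn1 (128 RPKM), Rpt6 (125 RPKM) and Rpn12 (124 RPKM) could not be ranked.

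**Figure D1:**
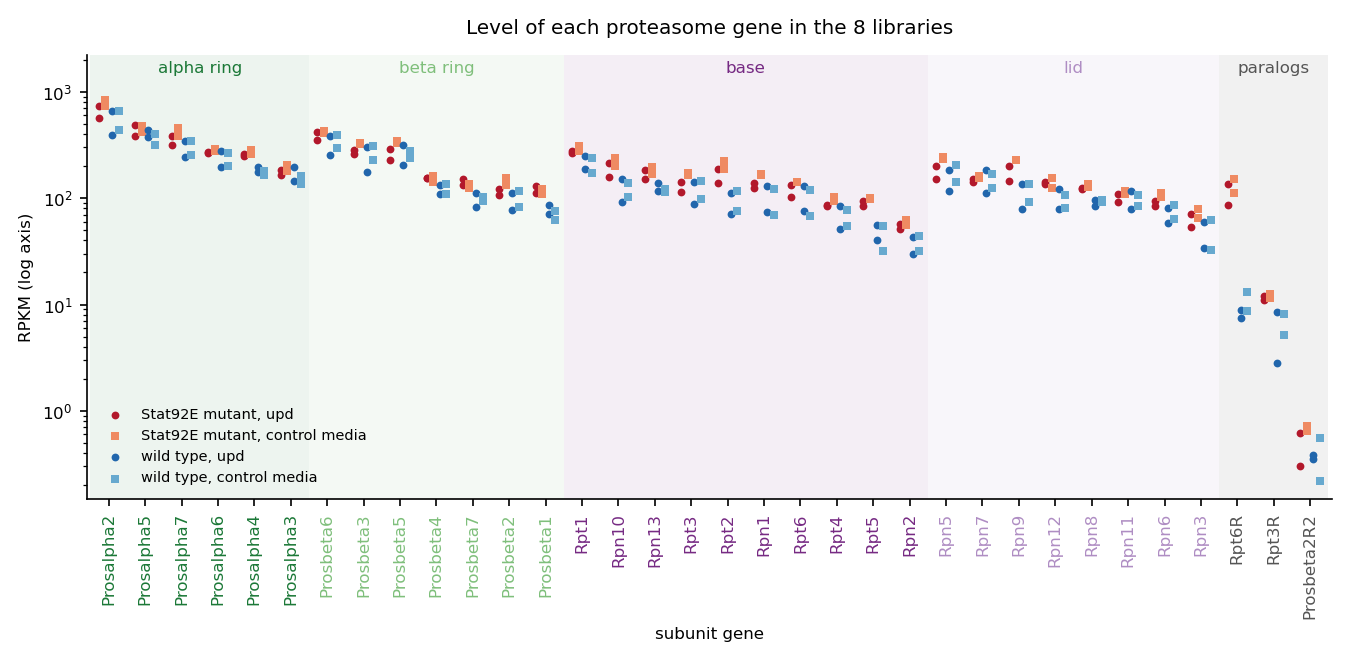
RPKM on a log axis for the 34 members with a median level above 0, ordered by part of the proteasome and by level. Each point is a library, in 4 colours for the 4 groups, and the somatic genes lie between 29.7 and 835 RPKM while Rpt3R and Prosbeta2R2 lie at or below 12.6 RPKM in every library.

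Prosalpha1, which encodes the first α subunit, and its copy Prosalpha1R had 0 counts in all 8 libraries. The genes lie side by side on chromosome arm 2R (7827303 to 7828678 and 7830413 to 7831771 on dm6), and how the counter treated reads that match both copies is not given in the sources used here. The core particle needs this subunit. The gene between the copies, CG18853, had at most 6 counts in a library, and phr on the other side of Prosalpha1 had 269 to 1771. The level of these 2 genes is therefore uncertain, and neither enters a test. Counting without strand information could mix the reads of overlapping genes on opposite strands, and 13 somatic members share between 1 and 264 exonic bases with such a gene.

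Most paralogs had no counts in these libraries. Of the 15 other than Prosalpha1R, 10 had 0 counts in every library, where 3 counts correspond to 0.0961 to 0.379 CPM depending on the library. Rpn13R had 1 count, in a wild-type library with upd. Rpt4R had 4 counts, all in 1 mutant library in control media. A 0 of a gene with a close copy carries the same uncertainty as that of Prosalpha1R. Of 19 testis markers, 9 or 10 had 0 counts in both libraries of a group, with can, aly, Mst98Ca, Mst98Cb, ProtA and ProtB at 0 in all 8, and their summed level was 55.8 to 68.7 CPM in mutant libraries and 84.3 to 91.1 CPM in wild-type libraries. That sum came mostly from mia and twe and, in wild-type libraries, from bam. Of 5 testable testis markers, mia was higher (0.61) and bam lower (-3.83) in mutant cells over both media, where 10.4% of all genes tested were called higher and 13.6% lower. With the media summed, bam passed and mia did not (edgeR adjusted p = 0.0773), where 3.48% of all genes were called higher and 6.63% lower. Intervals and floors of this kind cover counting error only.

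The 3 paralogs with counts above that floor in every library were Rpt6R, Rpt3R and Prosbeta2R2. Prosbeta2R2, a paralog of the trypsin-like subunit gene, was near the floor with 10 and 22 counts in mutant cells with upd, 19 and 16 in mutant control media, 5 and 17 in wild-type cells with upd and 7 and 9 in wild-type control media. It was 0.284% to 0.538% of the summed RPKM of the pair it forms with Prosbeta2 in mutant libraries and 0.186% to 0.67% in wild-type libraries. Rpt3R, a paralog of the ATPase gene Rpt3, was 6.45% to 8.71% of its pair in mutant libraries and 3.10% to 5.63% in wild-type libraries. Only Rpt6R, a paralog of the ATPase gene Rpt6, reached the level of its partner in any library.

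Rpt6R (FBgn0039788, 3R, 30582198 to 30583697, minus strand, 2 exons) separated the lines more than any other member. It stood at 156 and 226 CPM in mutant cells with upd and 173 and 224 CPM in mutant control media, against 16.7 and 11.6 CPM in wild-type cells with upd and 23.3 and 12.9 CPM in wild-type control media. All 4 mutant libraries were above all 4 wild-type libraries, and the lowest mutant value was several times the highest wild-type value. The log2 difference between mutant and wild-type cells was 3.78 ± 0.35 (SE, n = 2 per group) with upd and 3.49 ± 0.34 in control media, with adjusted p-values of 3.57e-04 and 5.87e-04 in edgeR's quasi-likelihood test. Averaged over both media it was 3.63 ± 0.24, which is 12.4-fold (adjusted p = 2.64e-05), and it passed with the media summed too (3.62 ± 0.29, adjusted p = 3.39e-04), a fit described with the comparison of the lines. Per length, Rpt6R made up 44.1% to 51.1% of the RPKM of the pair it forms with Rpt6 in mutant libraries, against 5.45% to 16.3% in wild-type libraries. Rpt6 itself was at 179 to 213 CPM in mutant libraries and 116 to 195 CPM in wild-type libraries, ranges that overlap. Its log2 difference was 0.39 ± 0.16 over both media and did not pass (adjusted p = 0.125).

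No gene tested among those nearest to Rpt6R passed. Of the 5 tabulated genes on each side, 3 had enough counts to be tested, and tmod (0.25 ± 0.18), CG2246 (-0.09 ± 0.18) and CG31021 (-2.67 ± 1.05) did not pass over both media. The genes that flank it directly, CG9702 and CG9717, had at most 11 counts in a library. Within 100 kb 2 of 7 tested genes were called higher and none lower, with a median of -0.08. Within 250 kb 3 of 26 were called higher and 3 lower, with a median of -0.07.

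Rpt3R (FBgn0037742, 3R, 9754735 to 9756510, minus strand) rose less. It had 19.6 and 19.5 CPM in mutant cells with upd and 17.6 and 18.7 CPM in mutant control media, against 5.21 and 13.1 CPM in wild-type cells with upd and 8.98 and 12.1 CPM in wild-type control media. The ranges of the lines did not overlap, and the shallow wild-type libraries held the lowest values. Over both media the log2 difference was 0.90 ± 0.26 (adjusted p = 0.035, edgeR), and against the deep wild-type libraries alone it was 0.57 with an adjusted p of 0.0586. It passed in neither medium on its own, nor with the media summed (0.92 ± 0.29, adjusted p = 0.0941). Leaving out 1 library ended the call over both media in 6 of 8 cases, with log2 differences of 0.669 to 1.34. Prosbeta2R2 had a log2 difference of 0.59 ± 0.55 that did not pass.

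**Figure D2:**
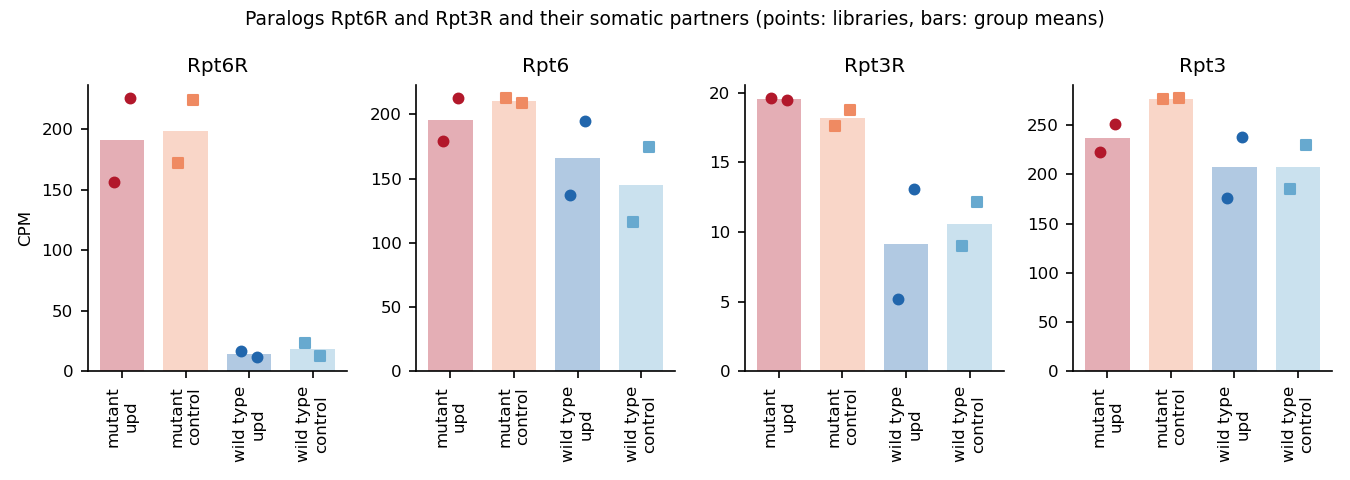
CPM of the paralogs Rpt6R and Rpt3R and of their somatic partners Rpt6 and Rpt3, with mutant groups left of wild-type groups, points for the 2 libraries of a group and bars for their mean. Rpt6R is between 156 and 226 CPM in mutant libraries and at or below 23.3 CPM in wild-type libraries, while the libraries of Rpt6 overlap between the lines.

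Whether an hour of upd changes proteasome transcripts was asked in each line. In mutant cells 0 of 34 tested members passed (edgeR, adjusted p at least 0.992), and none had an unadjusted p under 0.05. Their median log2 difference between upd and control media was 0.000644, with 17 members above and 17 below 0, and the median over all 8126 genes tested was 0.000298. Prosbeta7 (0.31 ± 0.16), Prosbeta1 (0.25 ± 0.16) and Prosbeta4 (0.23 ± 0.14) had the highest values, and Prosbeta2R2 (-0.37 ± 0.73), Rpn5 (-0.27 ± 0.19) and Rpn9 (-0.25 ± 0.21) the lowest. Rpt6R stood at -0.05 ± 0.30. The share of all genes called in this comparison was 0%, with 266 genes at an unadjusted p under 0.05, and DESeq2 called no member.

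In wild-type cells 0 of 34 members passed as well, with 0 at an unadjusted p under 0.05 and none called by DESeq2. The share of all genes called was 0%, and 148 of 8126 genes had an unadjusted p under 0.05. The median log2 difference of the members between upd and control media was 0.0736, against 0.00135 over all genes tested, with 25 of 34 above 0. The highest values were those of Prosbeta1 (0.27 ± 0.16), Prosalpha3 (0.27 ± 0.14) and Prosalpha5 (0.26 ± 0.15) and the lowest those of Rpt6R (-0.35 ± 0.33), Rpt3R (-0.17 ± 0.37) and Rpn5 (-0.13 ± 0.19). Compared within depth, the median was 0.121 between the deep libraries, with 29 members above 0, and -0.0045 between the shallow libraries, with 15 above 0. SEs of single somatic members in the fit of all libraries were 0.138 to 0.26.

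The difference of the responses, mutant minus wild type, passed for 0 of 34 members (edgeR, 0 at an unadjusted p under 0.05, DESeq2 0). The share of all genes called was 0%, with 88 at an unadjusted p under 0.05. The median difference of the members was -0.115, with 23 below 0. The 6 Rpt ATPase genes were all below 0, from -0.295 (Rpt6) to -0.103 (Rpt1), with SEs of 0.215 to 0.329. They rest on the same libraries, and whether they share a response was not tested. The highest values belonged to Rpt6R (0.29 ± 0.45), Rpt3R (0.28 ± 0.51) and Prosbeta7 (0.25 ± 0.22) and the lowest to Prosbeta2R2 (-0.49 ± 1.10), Rpn1 (-0.33 ± 0.34) and Prosbeta5 (-0.30 ± 0.23).

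**Figure D3:**
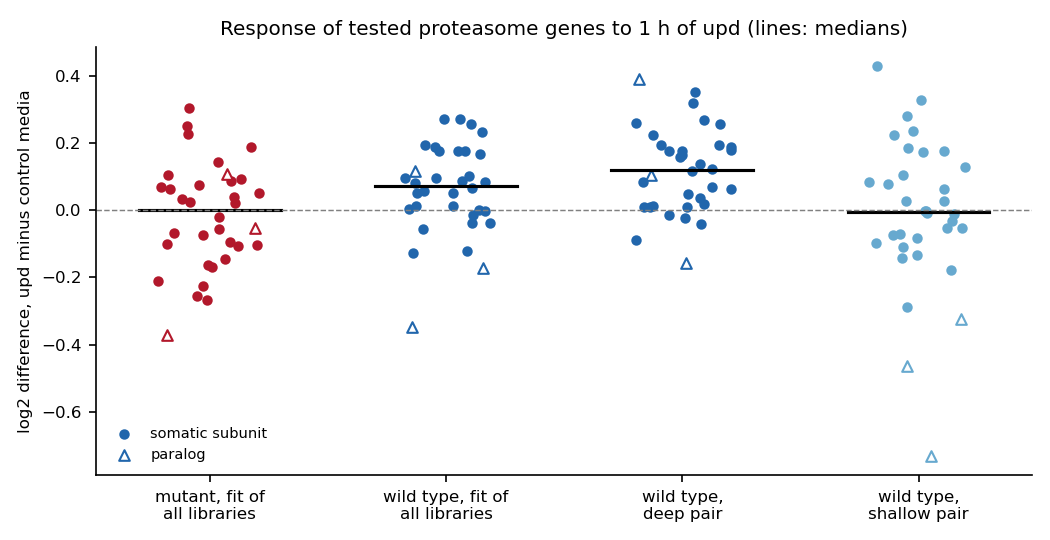
Log2 difference between upd and control media for the 34 tested members, from the fit of all libraries for mutant and wild-type cells and within the deep and the shallow wild-type pair. Circles are somatic genes, triangles are paralogs and lines are medians, which lie at 0.000644 in mutant cells, 0.0736 in wild-type cells, 0.121 in the deep pair and -0.0045 in the shallow pair.

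Proteasome transcripts were higher in the mutant line than in wild-type cells, with or without upd. Over both media 17 of 34 tested members rose and none fell, where 10.4% of all 8126 genes tested were called higher and 13.6% lower. All 34 had a log2 difference above 0, with a median of 0.416, against 0.0226 over all genes, of which 24% were called in either direction. Libraries of a line that share a replicate number deviated together between media (correlation across genes 0.617 in mutant and 0.619 in wild-type cells), so this fit counts as independent what may not be. With the 2 media summed by line and number, an analysis of 2 samples against 2 added after the data were seen, 5 of 34 members were called higher and none lower, where 3.48% of all genes were called higher and 6.63% lower. The members called there were Rpt6R, Rpt5, Rpt2, Rpn9 and Prosbeta1, and the median of 0.413 was nearly the same. With the replicate number as a term shared by the lines, the counts were 26 over both media, 12 with upd and 15 in control media. Replicate differences of the 2 lines hardly correlated (-0.0644 to 0.112), so these counts do not address what the media of a line share. Below, a member is said to have risen where the fit of 8 libraries called it. Members took 0.815% and 0.948% of the counts in mutant cells with upd and 0.948% and 1.03% in mutant control media, against 0.569% and 0.788% in wild-type cells with upd and 0.592% and 0.758% in wild-type control media. Each mutant library thus held a larger share than each wild-type library, and the shallow wild-type libraries held the lowest shares. In single media the same fit called 5 of 34 members with upd, where 3.99% of all genes were called higher, 6.53% lower and 10.5% in either direction. In control media it called 6 of 34, where 3.27% of all genes were called higher, 5.7% lower and 8.97% in either direction. The value over both media is the mean of these 2 comparisons and rests on the same libraries. With upd the count was 1 and 2 when replicate 1 or 2 of wild-type cells with upd was left out, 1 and 3 for those of mutant cells with upd, and 3 for either of mutant control media. In control media it was 2 and 3 when replicate 1 or 2 of wild-type control media was left out, and 1 and 2 for those of mutant control media.

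The shallow wild-type libraries moved with this result. In them the somatic members were lower than in the deep libraries of the same medium, with medians of -0.295 with upd and -0.195 in control media, against about 0 over all genes (-0.00225 and 0.00103). Against the deep wild-type libraries alone, a comparison added after the data were seen that leaves 1 wild-type library per medium, 10 of 34 members were called higher (6.41% of all genes), 33 were above 0 and the median was 0.291. Against the shallow libraries alone 20 were called (7.21% of all genes), with a median of 0.506. The mitochondrial share was highest in the same 2 libraries. With mitochondrially encoded transcripts taken out of all libraries, 17 members were called over both media. That fit removes those transcripts only, and what else sets the shallow libraries apart was not tested. Leaving out 1 library gave 8 to 15 calls over both media. The count was 9 when the first mutant library of either medium was left out, 8 for the second mutant library in control media, and 11 for either shallow wild-type library.

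The base of the regulatory particle held 8 of the 17 calls. Of its 10 genes, 8 rose over both media, where 10.4% of all genes tested were called higher, with a median log2 difference of 0.528. With the media summed 2 passed, Rpt5 and Rpt2, where 3.48% of all genes were called higher. Rpt5, an ATPase, stood at 171 and 174 CPM in mutant cells with upd and 176 and 164 CPM in mutant control media, against 85.3 and 97.9 CPM in wild-type cells with upd and 63.2 and 92.3 CPM in wild-type control media. The lines did not overlap for Rpt5, and its log2 difference of 1.02 ± 0.14 (adjusted p = 0.00112) was the highest of the somatic members. Rpt2, the ATPase gene next in order, had 281 and 348 CPM in mutant cells with upd and 327 and 380 CPM in mutant control media, against 149 and 195 CPM in wild-type cells with upd and 149 and 198 CPM in wild-type control media (0.95 ± 0.15, adjusted p = 0.00236). It too did not overlap between the lines. Rpt5 and Rpt2 passed in both media taken singly, with log2 differences of 0.91 and 0.87 with upd and of 1.12 and 1.03 in control media. In an alternative fit with limma on log2(RPKM + 1), Rpt2 passed in neither medium (adjusted p = 0.135 with upd and 0.0689 in control media). Rpt5 did not pass with upd there (adjusted p = 0.0927). Against the deep wild-type libraries alone, Rpt2 stood at 0.687 with upd and 0.834 in control media.

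Among the other base genes, the ubiquitin receptor gene Rpn10 rose by 0.71 ± 0.14 (adjusted p = 0.00729), with 281 and 345 CPM in mutant cells with upd and 304 and 350 CPM in mutant control media, against 170 and 233 CPM in wild-type cells with upd and 176 and 203 CPM in wild-type control media. All mutant libraries were above all wild-type libraries. The second ubiquitin receptor gene, Rpn13, rose by 0.47 ± 0.10. The scaffold genes Rpn1 (0.58 ± 0.17) and Rpn2 (0.58 ± 0.11) and the ATPase genes Rpt4 (0.43 ± 0.13) and Rpt1 (0.40 ± 0.11) also rose. Rpt6 (0.39 ± 0.16) and Rpt3 (0.30 ± 0.13) did not pass. Against the deep wild-type libraries alone, Rpn1 (0.329, adjusted p = 0.137), Rpt1 (0.305, adjusted p = 0.134) and Rpt4 (0.259, adjusted p = 0.157) lost their calls, while Rpt5, Rpt2, Rpn10, Rpn13 and Rpn2 kept theirs. Leaving out single libraries ended the calls of Rpt4 in 7 of 8 cases, Rpt1 in 6, Rpn1 in 5 and Rpn13 in 1.

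In the lid 4 of 8 genes rose, where 10.4% of all genes tested were called higher, with a median of 0.416. With the media summed Rpn9 alone passed, where 3.48% of all genes were called higher. The lid also held the smallest differences. Rpn9 had 283 and 361 CPM in mutant cells with upd and 390 and 377 CPM in mutant control media, against 161 and 229 CPM in wild-type cells with upd and 178 and 223 CPM in wild-type control media (0.83 ± 0.15, adjusted p = 0.00502). The lines did not overlap. Rpn12 (0.50 ± 0.12), Rpn8 (0.42 ± 0.11), a partner of the deubiquitinase, and Rpn6 (0.41 ± 0.10) rose too, and Rpn3 (0.49 ± 0.18, adjusted p = 0.0863) and Rpn5 (0.33 ± 0.13, adjusted p = 0.109) did not pass. Against the deep libraries alone Rpn12 (0.37, adjusted p = 0.0954) and Rpn6 (0.311, adjusted p = 0.0984) lost their calls, and against the shallow ones Rpn8 did (0.331, adjusted p = 0.0856). Leaving out single libraries ended the calls of Rpn6 in 6 of 8 cases, Rpn8 in 5 and Rpn12 in 4. Rpn11, the deubiquitinase gene, had 140 and 152 CPM in mutant cells with upd and 141 and 145 CPM in mutant control media, against 123 and 151 CPM in wild-type cells with upd and 123 and 133 CPM in wild-type control media, a difference of 0.13 ± 0.11 that did not pass. Rpn7 had the lowest value of all members, 0.05 ± 0.13 (adjusted p = 0.828), and was below 0 at -0.105 against the deep libraries alone.

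In the core particle 3 of 13 tested genes rose over both media, against 12 of 18 in the regulatory particle (median 0.449). Of all genes tested, 10.4% were called higher. The α ring held 1 of 6 (median 0.276) and the β ring 2 of 7 (median 0.306). With the media summed, 1 of 13 core genes passed, Prosbeta1 (0.65 ± 0.16, edgeR adjusted p = 0.0418). In the regulatory particle 3 of 18 did, where 3.48% of all genes were called higher. Whether these counts differ was not tested. In control media the shallow wild-type library was below the deep one for every regulatory gene but Rpn13 and Rpn8. In the core it was above the deep one for Prosalpha4 (log2 difference 0.358), Prosbeta7 (0.136), Prosbeta5 (0.017) and Prosalpha3 (0.004), and below it for the others. The part of this shift in the counts of the 2 particles was not tested. Prosbeta1, the caspase-like proteolytic subunit gene, stood at 139 and 109 CPM in mutant cells with upd and 101 and 108 CPM in mutant control media, against 79.0 and 79.2 CPM in wild-type cells with upd and 64.9 and 66.0 CPM in wild-type control media. The lines did not overlap, and the difference of 0.66 ± 0.11 (adjusted p = 0.0037) was nearly the same against the deep (0.647) and the shallow (0.669) wild-type libraries. The other proteolytic subunit genes did not pass: Prosbeta2, the trypsin-like one, stood at 0.38 ± 0.12 (adjusted p = 0.0512), and the gene Reck, which overlaps it by 82 exonic bases on the other strand, was lower in mutant cells (-1.08, adjusted p = 0.0044), and Prosbeta5, the chymotrypsin-like one, at 0.16 ± 0.11 (adjusted p = 0.354). Prosbeta7 rose by 0.45 ± 0.11 and lost its call both against the deep (0.44, adjusted p = 0.0783) and against the shallow (0.458, adjusted p = 0.0697) libraries, with its value nearly unchanged. In the α ring Prosalpha4 rose by 0.51 ± 0.12 (adjusted p = 0.0158), with 381 and 337 CPM in mutant cells with upd and 356 and 316 CPM in mutant control media, against 272 and 250 CPM in wild-type cells with upd and 256 and 200 CPM in wild-type control media. Its call was lost against the shallow libraries alone (0.398, adjusted p = 0.0773). The remaining tested α genes lay between 0.18 (Prosalpha3) and 0.40 (Prosalpha2) and did not pass.

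**Figure D4:**
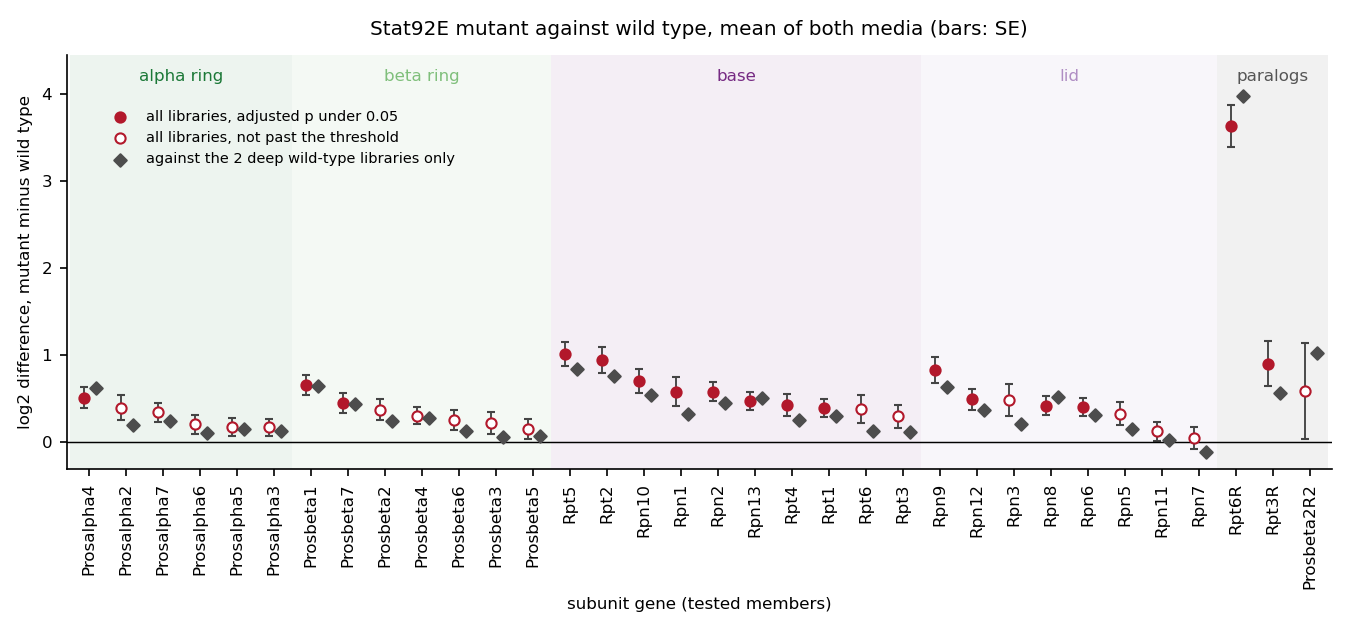
Log2 difference between mutant and wild-type cells, mean of both media, for the 34 tested members by part. Circles with SE bars are from all libraries (filled where the adjusted p is under 0.05, 17 genes) and diamonds are from a fit with only the 2 deep wild-type libraries, whose median is 0.291 against 0.416. Rpt6R stands apart at 3.63.

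The 3 somatic genes with the highest differences, Rpt5, Rpt2 and Rpn9, are neighbours. They lie on 3R on dm6 at 23752876 to 23754623 (plus strand), 23929873 to 23931558 (minus strand) and 23731375 to 23733462 (minus strand), over a span of 200.2 kb and 3210 kb from Stat92E. Other genes there were higher in the mutant line too. Of the genes tested within 250 kb, members left out, 17 of 49 around Rpt5 were called higher and 4 lower with a median of 0.453, 25 of 73 around Rpt2 were called higher and 5 lower with a median of 0.44, and 17 of 43 around Rpn9 were called higher and 4 lower with a median of 0.465. These windows overlap, and they were looked at after the values were seen.

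The raised stretch had edges. In bins of 200 kb along the arm, counted from Rpt5, the median over other genes was 0.383 at -100 to 100 kb (24 genes), 0.444 at 100 to 300 kb (29 genes), 0.413 at 300 to 500 kb (34 genes) and 0.439 at 500 to 700 kb (15 genes). It was -0.0186 in the next bin outwards (18 genes) and 0.0271 at -500 to -300 kb (14 genes), and the bin between -300 and -100 kb held only 4 genes, with a median of 1.25. Bins of fewer than 20 genes are uncertain. The bin at -100 to 100 kb was not raised throughout. Its tested genes beyond Rpn9, at -75.9 to -26.3 kb, lay between -8.27 (CG10232) and 0.33 (CG10254), and those called were lower. The 3 members exceeded the median of their surroundings by 0.565 (Rpt5), 0.508 (Rpt2) and 0.365 (Rpn9). The number of gene copies was not measured in these data, and its part in these differences was not tested.

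**Figure D5:**
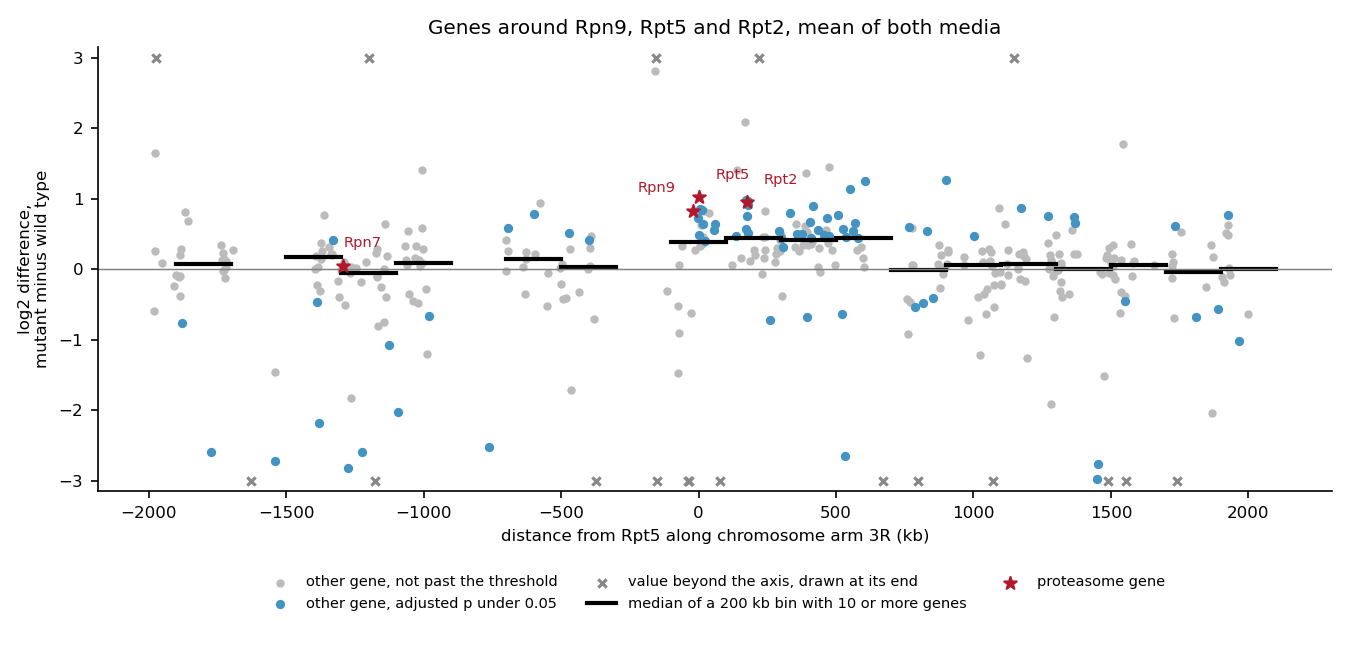
Log2 difference between mutant and wild-type cells, mean of both media, of tested genes on either side of Rpt5 on chromosome arm 3R, by distance in kb. Stars are proteasome genes and black lines are medians of 200 kb bins over the other genes, which lie between 0.383 and 0.444 from -100 to 700 kb and between -0.0479 and 0.168 in the other bins of 10 or more genes. In the bin at -100 to 100 kb, the genes left of Rpn9 lie at or below 0.33. Crosses mark values beyond the axis.

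Away from that stretch the members were raised above their surroundings as well. For each of the 31 tested somatic members, Rpt5, Rpt2 and Rpn9 included, the median over other tested genes within 250 kb was subtracted. All 31 remained above 0, with a median of 0.365 and a range from 0.0372 (Rpn7) to 0.69 (Rpn10). The medians of the surroundings themselves had a median of 0.0418 and exceeded 0.3 for these 3 genes only. Rpn11 on 2L lay where other genes were lower, with 19 of 58 called lower, 1 called higher and a median of -0.321, and stood 0.447 above them. Without Rpt5, Rpt2 and Rpn9, 12 of 28 somatic members were called higher, where 10.4% of all genes tested were. Their median was 0.391, with 9 of 15 called in the regulatory and 3 of 13 in the core particle. With the media summed, Prosbeta1 was the only 1 of these 28 called, where 3.48% of all genes were called higher. That count is near the share over all genes. By chromosome arm the median of the somatic members was 0.406 on X, 0.257 on 2L, 0.397 on 2R, 0.496 on 3L and 0.45 on 3R, against medians of all tested genes between -0.0996 (2L) and 0.0535 (3R).

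Some genes that work with the proteasome differed between the lines. Of 27 such genes on a list of assembly factors, activators, shuttles, ubiquitin genes and regulators, 24 were in the tables and tested, and over both media 5 rose and 2 fell in mutant cells, with a median of 0.145. That is against 10.4% of all genes called higher and 13.6% lower. With the media summed 2 passed as higher (Pomp and Uch-L5) and 1 as lower (Keap1), where 3.48% of all genes were called higher and 6.63% lower. Pomp, the chaperone that assembles the core particle, rose by 0.78 ± 0.09 (adjusted p = 5.98e-04), with 444 and 462 CPM in mutant cells with upd and 422 and 435 CPM in mutant control media, against 252 and 254 CPM in wild-type cells with upd and 262 and 259 CPM in wild-type control media. Its replicates were close in every group, the shallow wild-type libraries included. Uch-L5, a deubiquitinase that binds Rpn13, rose by 0.82 ± 0.11, the proteasome activator gene REG by 0.44 ± 0.11, the ubiquitin ligase gene Ube3a by 0.55 ± 0.15 and Hrd3, a gene of endoplasmic reticulum protein quality control, by 0.49 ± 0.13. Hrd3 is the neighbour of Rpt5 and shares 1 exonic base with it on the other strand. Among other opposite-strand partners of members that rose, CG31142 (0.75, adjusted p = 0.00618, 116 bases shared with Rpt2) and CG8389 (0.81, adjusted p = 0.00653, 11 bases shared with Prosbeta1) were higher too, and wuho next to Rpt4 (0.04) and CG10365 next to Rpn9 (-0.62) did not pass.

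The genes of the list that fell were Keap1 (-0.75 ± 0.14, adjusted p = 0.00513), which encodes the inhibitor of the transcription factor Cnc, and sip3 (-0.39 ± 0.11, adjusted p = 0.04), a ligase of endoplasmic reticulum quality control. The cnc gene itself, known in flies to drive proteasome genes under stress, had 113 and 102 CPM in mutant cells with upd and 84.6 and 86.0 CPM in mutant control media, against 127 and 80.3 CPM in wild-type cells with upd and 104 and 88.5 CPM in wild-type control media, and the lines overlapped (-0.06 ± 0.15, adjusted p = 0.82). Its partner maf-S stood at 0.33 ± 0.19 and the polyubiquitin gene Ubi-p63E at -0.19 ± 0.28, and neither passed. With upd against control media 0 of the 24 passed in either line.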

How the data were processed

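Poly-A RNA of S2R+ cells and of a Stat92E mutant S2R+ line was sequenced after 1 h of upd or control media. The submitters' processing notes list Trimmomatic 0.36, STAR 2.5.2b and the build dm6. The counter, its annotation and its strand setting: not given in the sources used here. The deposited tables hold a raw count, a length and an RPKM value per gene, and the authors' RPKM is the count per length divided by 1 constant per library, which the gene total makes up 85.2% to 90.6% of. Symbols and dm6 coordinates came from Ensembl release 115, which named 13852 of 13932 identifiers.

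All 8 libraries entered 1 fit of edgeR 4.0.16 (R 4.3.3) with TMM scaling, filterByExpr, 4 group means and the quasi-likelihood test, two-sided, with Benjamini-Hochberg adjustment over 8126 genes and a threshold of 0.05, on 4 residual degrees of freedom. SEs are the log2 difference divided by the root of the test statistic. The filter kept 34 of 48 members, of which 31 are somatic. CPM use TMM library sizes, and differences between single libraries use log2(CPM + 0.5). Alternatives were RLE factors, no filter, DESeq2 1.42.0, limma 3.58.1 on log2(RPKM + 1), replicate blocks, no mitochondrial genes and left-out libraries; fits with only deep or shallow wild-type libraries, a fit of counts summed over both media by line and replicate number, and the windows around members were added after the data were seen. The fitting code was tested on simulated data. Members, gene lists and tests were chosen with earlier results of these data known. Named are the paralogs, the members that passed, the 3 highest and lowest in each comparison, the extremes of level in each part and fixed genes of the associated list; Prosbeta2, Rpt3, Rpt6, neighbouring genes and overlapping genes outside that rule were named after their values were seen.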

Additional observations from a re-analysis of the deposited data

How the results depend on the processing

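Over both media, the count of members called higher in mutant than in wild-type cells was 26 of 34 with the replicate block, 11 with limma on log2(RPKM + 1), 5 with both media summed by line and number and 10 with only the deep wild-type libraries, against 17; the median was 0.291 with only the deep libraries. In control media the count was 11 without a filter on low counts, 15 with the replicate block, 10 with DESeq2 and 2 with only the deep libraries, against 6. With upd it was 9 without a filter, 12 with the replicate block, 9 with DESeq2, 1 with limma, 2 with only the deep libraries (median 0.228) and 3 with only the shallow ones, against 5. The median response of mutant cells to upd was -0.179 with limma on log2(RPKM + 1), whose RPKM carry no TMM scaling. No member passed for upd in either line or for the difference under any alternative. Leaving out 1 library gave 1 to 6 calls in control media, 1 to 4 with upd and 8 to 15 over both media. It gave medians of 0.339 to 0.564 in control media, 0.228 to 0.482 with upd and 0.348 to 0.475 over both media, and for upd of -0.0386 to 0.0394 in mutant cells, -0.0962 to 0.208 in wild-type cells and -0.214 to 0.0397 for the difference.

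Values turned sign only where they were small or from paralogs. With only the deep wild-type libraries Rpt3R turned to 0.108 for upd in wild-type cells and to -0.0022 for the difference of responses, Prosbeta2R2 turned to 0.169 for that difference with only the shallow ones, and between the lines Rpn7 was -0.0506 in control media, -0.16 with upd and -0.105 over both media, Prosalpha3 -0.029 and Prosbeta5 -0.159 with upd. Leaving out 1 library moved Rpn5 from -0.341 to 0.0632, Rpt3R from -1.04 to 0.3 and Rpt6R from -0.741 to 0.0977 for upd in wild-type cells, and Prosbeta2R2 from -1.3 to 0.253, Rpt3R from -0.195 to 1.14 and Rpt6R from -0.153 to 0.686 for the difference. Between the lines it moved Rpn7 from -0.0506 to 0.145 in control media, from -0.159 to 0.286 with upd and from -0.0555 to 0.166 over both media, and with upd Prosalpha3 from -0.0281 to 0.144 and Prosbeta5 from -0.158 to 0.199. Rpt6R, Rpt5, Rpt2, Rpn9, Rpn10, Rpn2 and Prosbeta1 kept their calls over both media without any 1 library. Each such fit kept the library of the same number in the other medium. With the media summed, Rpn10 (edgeR adjusted p = 0.0574) and Rpn2 (edgeR adjusted p = 0.0716) did not pass. The causes were not tested.

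Replicates share only a number in the labels. Across 8126 genes the replicate differences of upd and control media correlated at 0.617 in mutant and 0.619 in wild-type cells and at -0.0644 to 0.112 between the lines. The replicate block raised the counts as given above. Windows of 100 kb and 500 kb gave medians of 0.361 to 0.46 around Rpn9, Rpt5 and Rpt2.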
